A study of Rattus norvegicus with 4 samples.

Results

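The genes described here encode the mitochondrial respiratory chain and ATP synthase. They were taken by name from the array's platform annotation. The name rule uses no measured value, but the genes were chosen with earlier results of these data known. A probe set is the group of short oligonucleotides that measures 1 transcript on an Affymetrix array. It was included where it paired with exactly 1 gene symbol and that symbol began with Nduf, Sdha to Sdhd, Uqcr, Cox4 to Cox8 or Atp5, or was Cycs or Cyc1. The rule took in 102 of 8799 probe sets, for 56 of the 4737 genes with a symbol of their own on the array. Complex I had 49 probe sets (27 genes), complex II 2 (Sdha and Sdhaf2), complex III 7 (4 genes), complex IV 27 (13 genes) and ATP synthase 17 (10 genes). Cytochrome c had none, because its probe set pairs with several symbols. In all, 7 probe sets that pair a symbol of these families with another gene or pseudogene, the cytochrome c one among them, were left out.

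Testis RNA of male rats of the outbred Sprague Dawley strain was hybridised to 4 Affymetrix rat U34 set A arrays. The control IgG group (2 arrays) received a sheep immunoglobulin and the FSH antibody group (2 arrays) received an antibody against rat follicle-stimulating hormone (FSH) raised in sheep, both for 4 days. The comparison asks what short suppression of FSH does to gene expression in the immature testis. The labels do not agree on age: injections started on postnatal day 18 with collection on day 22 in 1 place, and started on day 14 in another. Every source name gives postnatal day 18 and 4 days of antibody, without saying whether day 18 is the start or the collection. The title of antibody replicate 2 reads postnatal day 4, so its group was taken from its source name. Each RNA was a pool of about 20 organs by the extraction text, which says ovaries, whereas every source name says testis and gives 1 rat. How many animals each array stands for is therefore not settled, and the p-values measure only the spread between these RNA samples.

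The respiratory chain passes electrons from NADH through complex I, or from succinate through complex II, to ubiquinone, then through complex III and cytochrome c to complex IV, which reduces oxygen. Complexes I, III and IV pump protons across the inner mitochondrial membrane, and ATP synthase uses the returning protons to make ATP. Most subunits are encoded in the nucleus and a few in mitochondrial DNA, so both genomes contribute to complexes I, III, IV and ATP synthase. In the testis, Sertoli cells, which carry the FSH receptor, run largely on glycolysis and supply lactate, and meiotic germ cells depend on mitochondrial respiration.

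Start-site sequences of 47 of the 56 genes were found in RefSeq (rat assembly GRCr8), each 250 bases before to 50 after the start. The windows of 2 members are shown, Cox8a because 3 of its 4 probe sets read above both controls on both antibody arrays, and Ndufb8 because 1 of its probe sets had the smallest p among the members. Both are written 5′ to 3′ on the gene's strand, with motif matches in capitals. Cox8a lies at chr1:213833574-213833873 on the minus strand, and Ndufb8 at chr1:253362887-253363186 on the minus strand.
Cox8a: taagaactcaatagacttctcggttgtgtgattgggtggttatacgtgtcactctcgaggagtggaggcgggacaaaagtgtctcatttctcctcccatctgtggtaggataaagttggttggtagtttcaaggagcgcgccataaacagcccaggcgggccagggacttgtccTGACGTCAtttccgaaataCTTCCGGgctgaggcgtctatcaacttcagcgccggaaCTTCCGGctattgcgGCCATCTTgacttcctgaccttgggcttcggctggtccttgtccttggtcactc
Ndufb8: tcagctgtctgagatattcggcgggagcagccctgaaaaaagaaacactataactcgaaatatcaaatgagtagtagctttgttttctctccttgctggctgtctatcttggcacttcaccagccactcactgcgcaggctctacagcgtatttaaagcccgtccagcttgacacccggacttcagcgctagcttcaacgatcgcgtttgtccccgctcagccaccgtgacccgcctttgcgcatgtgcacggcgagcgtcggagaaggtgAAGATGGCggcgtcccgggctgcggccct
The capitals in Cox8a mark, in order, a match to the CREB motif TGACGTCA, 2 matches to the GABP (NRF2) motif CCGGAAG on the opposite strand, and 1 to the YY1 motif AAGATGGC on the opposite strand. In Ndufb8 they mark 1 match to AAGATGGC. No matches overlapped in either window.

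These factors are among those known to act on nuclear genes for mitochondrial proteins, and 6 motifs were searched on both strands of each window. AAGATGGC was found in 11 of the 47 windows (23.4%) and in 3.44% of all 27457 RefSeq rat windows of that length. CCGGAAG was found in 10 (21.3%, against 9.22% of all). TGACGTCA was found in 2, Cox8a and Ndufb2 (4.26%, against 1.91%), and the NRF1 motif GCGCATGCG in 1, Atp5po (2.13%, against 1.66%). The TATA motif TATAAA was found in 2, Cox8b and Ndufs6 (4.26%, against 14.3%). The estrogen-related receptor motif TCAAGGTCA was in none, and in 0.412% of all windows. Median GC content was 56.0% in the members' windows and 52.3% in all. The set of all windows includes noncoding genes, and these shares are descriptions of letters in the windows, not of binding.

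Values were analysed as log2(intensity + 16), a scale that understates the change of dim probe sets, and a log2 change is the antibody mean minus the control mean ± SE, with n = 2 arrays a group. Intensities are the deposited array values, which had been scaled to a common level. The 40% of probe sets with the lowest mean were not tested, which left 5252 in all and 92 of the 102 members (55 genes). The 10 members too dim to be tested were probe sets of Ndufa4l2 (3), Ndufab1, Ndufb11, Ndufs4, Ndufs8, Cox6a2, Cox6c-ps1 and Cox8b, with intensities from 1.3 to 26.4. Cox6c-ps1, a pseudogene, was the only gene with no tested probe set. The members were bright: 63 of the 92 lay among the 1313 brightest of the tested probe sets.

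No respiratory chain or ATP synthase probe set passed limma's test of antibody against control after adjustment over all tested probe sets. The smallest adjusted p among the 92 was 0.612, while 14 of 5252 probe sets (0.267%) passed an adjusted p of 0.05. At an unadjusted p of 0.05, 0 members passed in the higher direction, against 3.98% of all tested, and 1 passed in the lower direction, against 4.13%. A log2 change above 0 was found in 48 members and below 0 in 44. Their median log2 change was 0.0033 and that of all tested probe sets 0.029. After median centring of the arrays, the split became 35 above and 57 below (38.0% above, against 52.2% as deposited), and that of all tested probe sets went from 55.3% to 47.2% above.

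The antibody arrays both lay above the control arrays for 6 members, where the background was 21.9% of all tested, and both below for 12, where it was 15.5%. Together these were 18 of 92 (19.6%), against 37.4% of all tested. The members' log2 changes ran from -0.63 to 0.40, and the middle 50% spanned 0.22, against 0.31 for all tested. One member (1.09%) was beyond 1.5-fold, against 3.92% of all tested. The 95% interval lay wholly within 1.5-fold in either direction for 55 of the 92 (59.8%), against 46.4%. For the others, a 1.5-fold difference lies inside the interval. The median SE was the same for both, 0.19.

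**Figure D1:**
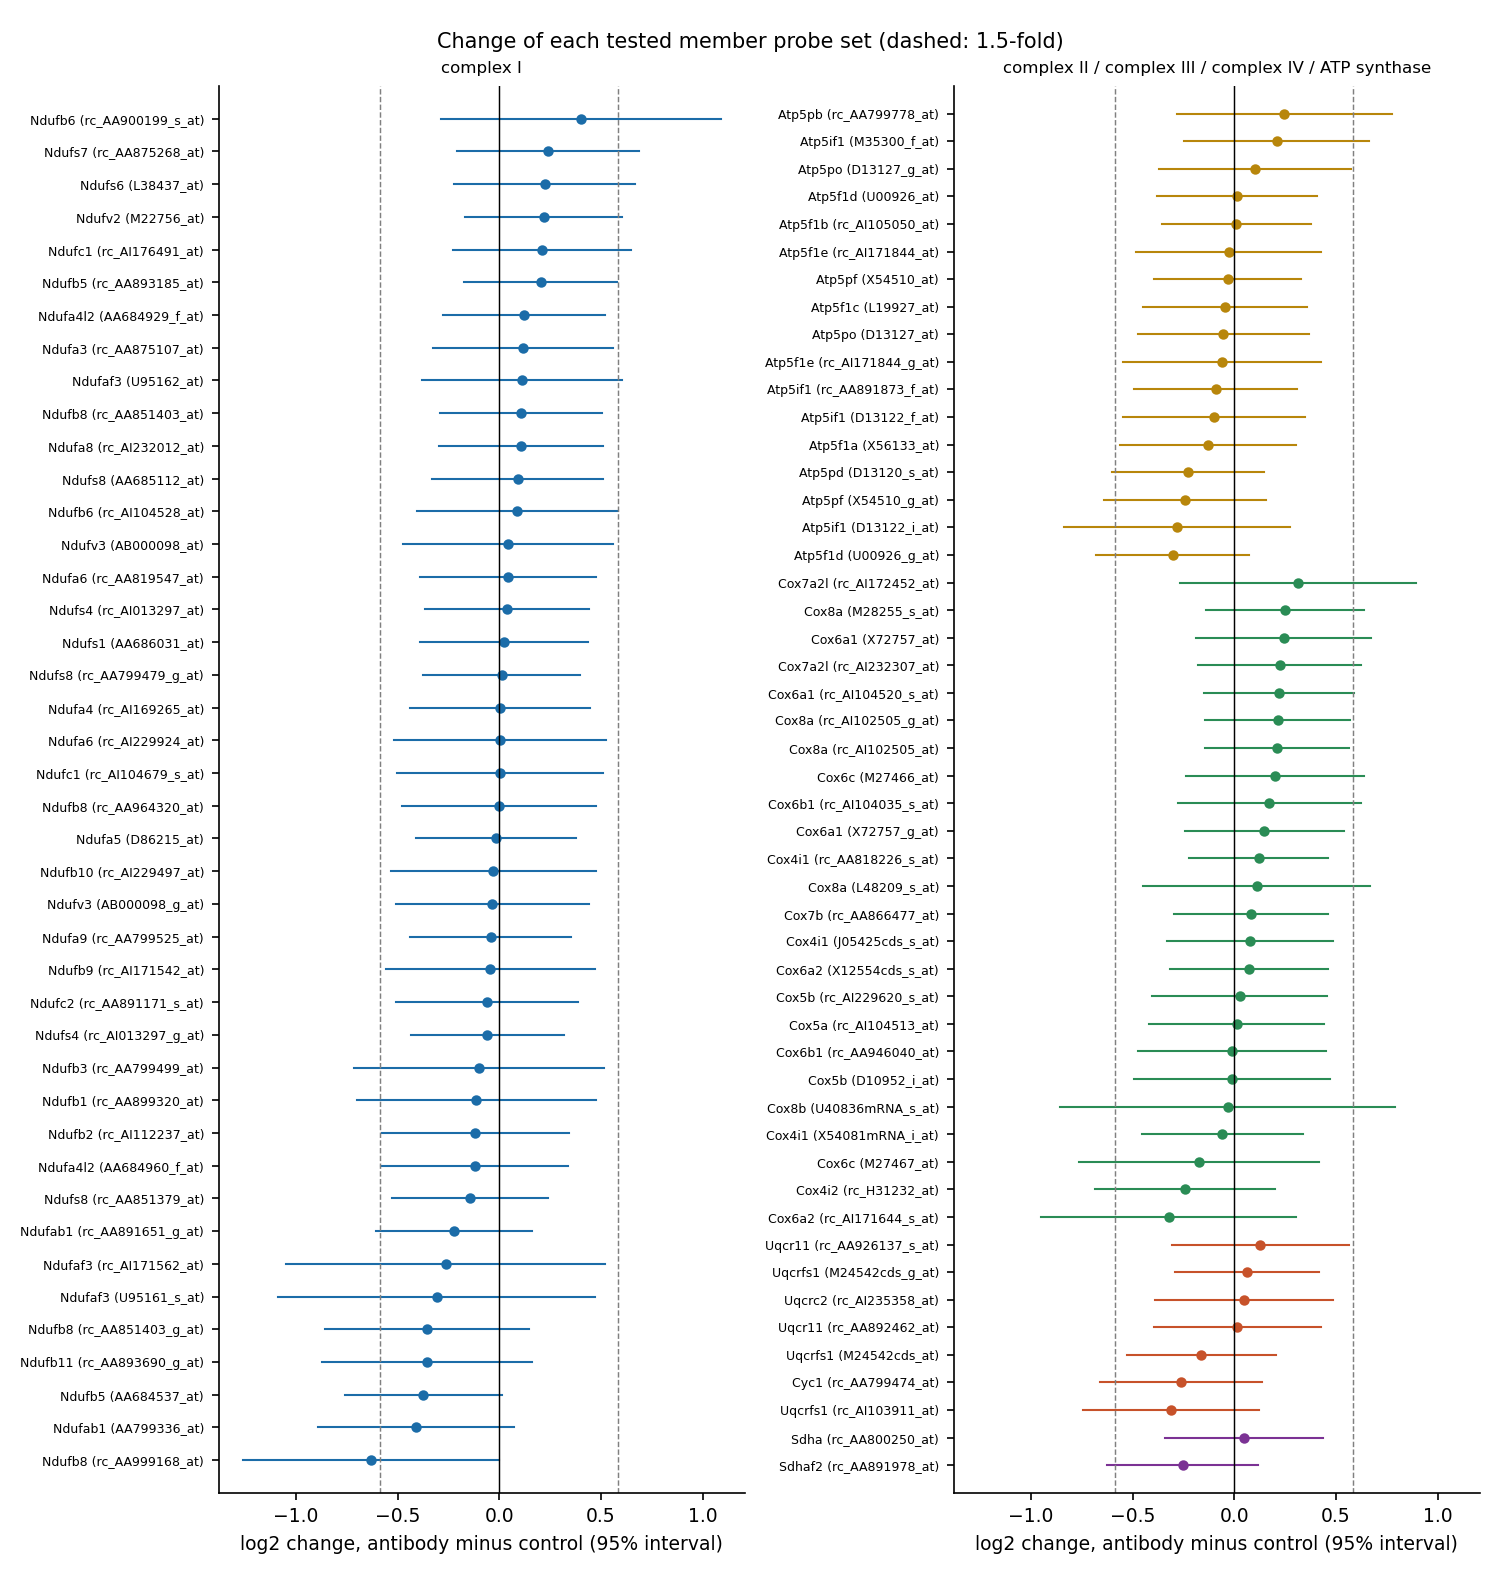
Log2 change (antibody minus control, x axis) of each of the 92 tested probe sets with its 95% interval from limma, complex I on the left and complexes II (purple), III (orange), IV (green) and ATP synthase (ochre) on the right. The dashed lines mark 1.5-fold, and the points run from -0.63 (Ndufb8) to 0.40 (Ndufb6).

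Complex I, the NADH dehydrogenase, had 21 tested probe sets above 0 and 21 below, a median log2 change of 0.0012. Antibody arrays lay wholly above the controls for 2 and wholly below for 5 (16.7% together), against 21.9% and 15.5% of all tested (37.4% together). The member with the smallest p was a probe set of Ndufb8 (rc_AA999168_at), an accessory subunit of the membrane arm. Its intensity was 40.3 and 89.3 in the controls and 31.9 and 35.5 on the antibody arrays. Control 2 stood well above the other 3 arrays, though the groups did not overlap. The log2 change was -0.63 ± 0.28 (unadjusted p = 0.0494, limma adjusted p = 0.612).

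The other 3 Ndufb8 probe sets had overlapping groups. One gave 833.2 and 1353.8 in the controls and 833.2 and 823.0 with antibody, again with control 2 alone high (-0.35 ± 0.22). The other two had log2 changes of 0.11 ± 0.18 and -0.00053 ± 0.21.

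Ndufb5, also of the membrane arm, had 2 probe sets whose groups separated in opposite directions. The first (AA684537_at) read 118.4 and 129.1 in the controls and 97.0 and 86.9 with antibody (log2 change -0.37 ± 0.17, limma adjusted p = 0.634). The second (rc_AA893185_at) read 347.2 and 395.8, then 440.2 and 418.4, a log2 change of 0.20 ± 0.17 (adjusted p = 0.834).

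Ndufab1, the mitochondrial acyl carrier protein that is also a complex I subunit, had both tested probe sets below the controls. The first read 304.0 and 369.7 in the controls and 203.1 and 303.1 with antibody (-0.41 ± 0.21, limma adjusted p = 0.683). The second read 817.2 and 945.9, then 701.2 and 805.7 (-0.22 ± 0.17, adjusted p = 0.815). Groups were separate for both, in the first by less than 1 intensity unit.

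Among the positive log2 changes, a probe set of Ndufb6 had the greatest value (0.40 ± 0.31, limma adjusted p = 0.815). It read 420.9 and 903.3 in the controls and 936.6 and 719.3 with antibody, so control 1 alone was low and the groups overlapped. The other Ndufb6 probe set had a log2 change of 0.089 ± 0.22. Ndufv2, which carries an iron-sulfur cluster of the NADH-binding arm, read 584.5 and 670.0, then 679.5 and 785.0 (0.22 ± 0.17). Its groups were separate, with control 2 close under antibody 1. Ndufs7, a core iron-sulfur subunit, read 314.1 and 401.9, then 370.5 and 483.1 (0.24 ± 0.20), and its groups overlapped.

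Ndufaf3, a complex I assembly factor that the name rule includes, had the widest gap between the 2 control arrays of the 92 tested members on the log2(intensity + 16) scale. One probe set read 135.3 and 354.3 in the controls and 206.2 and 158.8 with antibody, and a second 128.4 and 327.0, then 193.0 and 138.8. Control 2 was highest and antibody 1 second on both. The log2 changes of -0.26 ± 0.35 and -0.31 ± 0.35 were within that spread, and the remaining, dim probe set had 0.11 ± 0.22. The germ cell genes Ldhc, the testis lactate dehydrogenase, and Hspa2, a meiotic heat shock protein, were also highest on control 2 and second on antibody 1: Ldhc read 41.6 and 333.6, then 143.6 and 41.3, and Hspa2 150.1 and 505.9, then 358.1 and 142.6.

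The meiotic germ cell markers as a list had 9 genes on the array, with 10 tested probe sets, of which 1 was above 0 and 9 below, none called by limma (smallest adjusted p 0.634). By the brightest probe set of each gene, 1 gene was above 0 and 7 below. The 3 probe sets that were separate and lower (15.5% of all tested were) were all of Crem, a regulator of spermatid genes. One, of Adam2, was separate and higher (21.9% of all tested were). Their summed intensity was 1468 to 2321 in the controls and 1138 to 1744 with antibody. Control 2 was highest and antibody 1 second for 5 of the 10 (Ldhc, Hspa2, H2bc1, Pdha2 and Sycp3). Control 2 was highest for 7, control 1 for 2 and antibody 2 for 1. None was at 0, and the 2 probe sets too dim to test were H1f6, a testis-specific histone, at 6.8 to 11.4 and another of Crem at 2.4 to 19.1. The part of germ cell content in the Ndufaf3 values was not tested. In whole-testis RNA, fewer cells of a type and less RNA per cell cannot be told apart.

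The remaining complex I genes were Ndufa3, Ndufa4, Ndufa4l2, Ndufa5, Ndufa6, Ndufa8, Ndufa9, Ndufb1, Ndufb2, Ndufb3, Ndufb9, Ndufb10, Ndufb11, Ndufc1, Ndufc2, Ndufs1, Ndufs4, Ndufs6, Ndufs8 and Ndufv3. Ndufa4 is named for complex I and is now assigned to complex IV. Log2 changes here ran from -0.36 (Ndufb11) to 0.22 (Ndufs6). One probe set of Ndufs8, an iron-sulfur subunit, was separate and lower (188.6 and 198.5, then 163.4 and 184.3; -0.14 ± 0.17), while its other tested probe sets had 0.09 and 0.012.

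Complex II, succinate dehydrogenase, was represented by 2 probe sets. Sdha, the flavoprotein that oxidises succinate, read 542.4 and 446.2 in the controls and 516.9 and 500.8 with antibody (0.05 ± 0.17, limma adjusted p = 0.969). The antibody values lay between the controls. Sdhaf2, which helps attach the flavin to Sdha, read 211.4 and 218.4, then 173.0 and 182.3. Its groups were separate and the arrays of each treatment close together (-0.25 ± 0.17, adjusted p = 0.763).

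Complex III, the cytochrome bc1 complex, had 7 tested probe sets, 4 above and 3 below 0. Of these, 3 were separate and lower and none separate and higher, where the shares of all tested were 15.5% and 21.9%. Cyc1, the cytochrome c1 subunit, read 889.8 and 1076.8 in the controls and 747.7 and 885.6 with antibody (-0.26 ± 0.18, limma adjusted p = 0.775). Control 1 and antibody 2 nearly touched.

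Uqcrfs1, the Rieske iron-sulfur protein, had 3 probe sets. On 2 of them the groups were separate and lower with antibody: 232.5 and 310.1, then 228.6 and 198.7 (-0.31 ± 0.19), and 490.4 and 525.7, then 456.4 and 447.9 (-0.16 ± 0.16). The third read 1191.6 and 1293.4, then 1268.5 and 1330.4, with overlap (0.06 ± 0.16). The 3 probe sets of this gene thus did not agree on a direction. Uqcrc2, a core subunit, read 437.6 and 378.1, then 491.0 and 361.6 (0.05 ± 0.20). Uqcr11, a small accessory subunit, had log2 changes of 0.016 ± 0.18 and 0.13 ± 0.19, with overlap in both.

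Complex IV, cytochrome c oxidase, had the highest share of members above 0: 17 of 24 tested probe sets, with a median log2 change of 0.097, against 55.3% and 0.029 over all tested. Cox8a supplied 4 of the 17, Cox6a1 3 and Cox7a2l 2. By the brightest probe set of each gene, 10 of 12 genes were above 0, with a median of 0.10. With the mean over each gene's probe sets the median was 0.030, near the 0.029 of all tested. Centred on array medians, 15 of 24 were above 0 and the median was 0.05. Antibody arrays lay wholly above the controls for 4 (16.7%), against 21.9% of all tested, and wholly below for 0, against 15.5%. None passed limma's test (smallest adjusted p 0.789). The split depended on single arrays: without antibody 2 it was 12 above and 12 below, and without control 2 it was 22 and 2.

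Cox8a, the widely expressed form of the smallest nuclear subunit, supplied 3 of those 4 probe sets. The first (rc_AI102505_at) read 895.6 and 870.6 in the controls and 1012.7 and 1034.3 with antibody (0.21 ± 0.16, limma adjusted p = 0.815). The second (rc_AI102505_g_at) read 1331.2 and 1323.3, then 1447.1 and 1641.5 (0.21 ± 0.16). The third (M28255_s_at) read 1540.0 and 1269.9, then 1795.5 and 1541.8 (0.25 ± 0.17). On the first, arrays of 1 treatment lay close together and the groups stood apart, while on the third control 1 and antibody 2 nearly touched. The remaining one (L48209_s_at) read 406.8 and 499.2, then 369.9 and 641.9, with full overlap (0.11 ± 0.25). The first 2 of these share an accession and are not independent measurements.

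Cox6a1, the widely expressed form of subunit VIa, had log2 changes of 0.22 ± 0.16, 0.24 ± 0.19 and 0.15 ± 0.17 on 3 probe sets. The first (rc_AI104520_s_at) was separate and higher, with 1962.9 and 2089.0 in the controls and 2598.3 and 2149.2 with antibody. On the second (X72757_at) the values were 59.8 and 70.0, then 69.8 and 90.4, so the groups overlapped slightly. On the third (X72757_g_at), control 2 at 1419.9 lay above antibody 1 at 1341.4.

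Tissue isoforms of complex IV known from lung or muscle were also on the array. Cox4i2, the lung form of subunit IV that responds to low oxygen, read 219.5 and 206.8 in the controls and 211.3 and 149.1 with antibody (-0.24 ± 0.20, limma adjusted p = 0.828). Antibody 2 alone was low. Its widely expressed counterpart Cox4i1 had 0.12 ± 0.15, 0.08 ± 0.18 and -0.06 ± 0.18, all with overlap.

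Cox6a2, the heart and skeletal muscle form of VIa, read 24.2 and 55.4, then 28.2 and 25.5 on 1 probe set (-0.32 ± 0.28), and 98.1 and 95.7, then 95.5 and 110.3 on another (0.07 ± 0.17). Cox8b, the muscle form of VIII, read 39.0 and 21.7, then 13.4 and 51.5, with the 2 antibody arrays at the extremes (-0.03 ± 0.37). Both genes also had a probe set too dim to test. Other markers of striated muscle and brown fat were dim: Acta1 read 9.6 to 14.9, Tnni2 2.2 to 5.8, Tnnt3 11 to 25.2, and Ucp1 at most 18.7. Acta1, Tnni2 and 1 Ucp1 probe set were separate and higher with antibody. Tnnt3 was separate and lower, and the other Ucp1 probe set overlapped. Only Ckm, the muscle creatine kinase, was tested in that list (-0.57 ± 0.20, adjusted p = 0.534), and the summed intensity of its 6 probe sets was 96.2 to 106 in the controls and 73.5 to 79.4 with antibody. Whether muscle tissue enters the isoform values was not tested.

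Cox6c had log2 changes of 0.20 ± 0.20 (76.8 and 92.9, then 86.2 and 114.7) and -0.17 ± 0.26 (46.9 and 96.8, then 57.6 and 59.8). The groups overlapped on both. Cox6b1, which lies at the interface of the complex IV dimer, had 0.17 ± 0.20 and -0.0095 ± 0.21. The remaining genes, Cox5a, Cox5b, Cox7a2l and Cox7b, ran from -0.012 (Cox5b) to 0.31 (Cox7a2l, a factor that joins complexes III and IV into supercomplexes), with overlap in each.

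The 3 core subunits of complex IV come from mitochondrial DNA and are outside the name rule. All of their 4 probe sets lay lower with antibody, without overlap, in contrast to the nuclear subunits, of which 0 of 24 did so. Over all tested probe sets the share was 15.5%. The 4 probe sets cover 3 genes on the same 4 arrays and are not independent of each other. COX1 read 6504.8 and 6039.0 in the controls and 5757.4 and 5152.5 with antibody (-0.20 ± 0.15). A second COX1 probe set read 5461.9 and 4952.9, then 4584.9 and 4338.7 (-0.22 ± 0.15). COX3 read 6490.5 and 6040.9, then 5786.5 and 5501.8 (-0.15 ± 0.14). In each of these, both controls stood above both antibody arrays.

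COX2 read 4512.3 and 5152.1, then 4357.8 and 4320.2 (-0.15 ± 0.15). None of the 4 passed limma's test (adjusted p 0.771 to 0.859). Each stayed below 0 in all 12 alternative settings tried. The difference between mitochondrial and nuclear subunits was not itself tested.

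**Figure D2:**
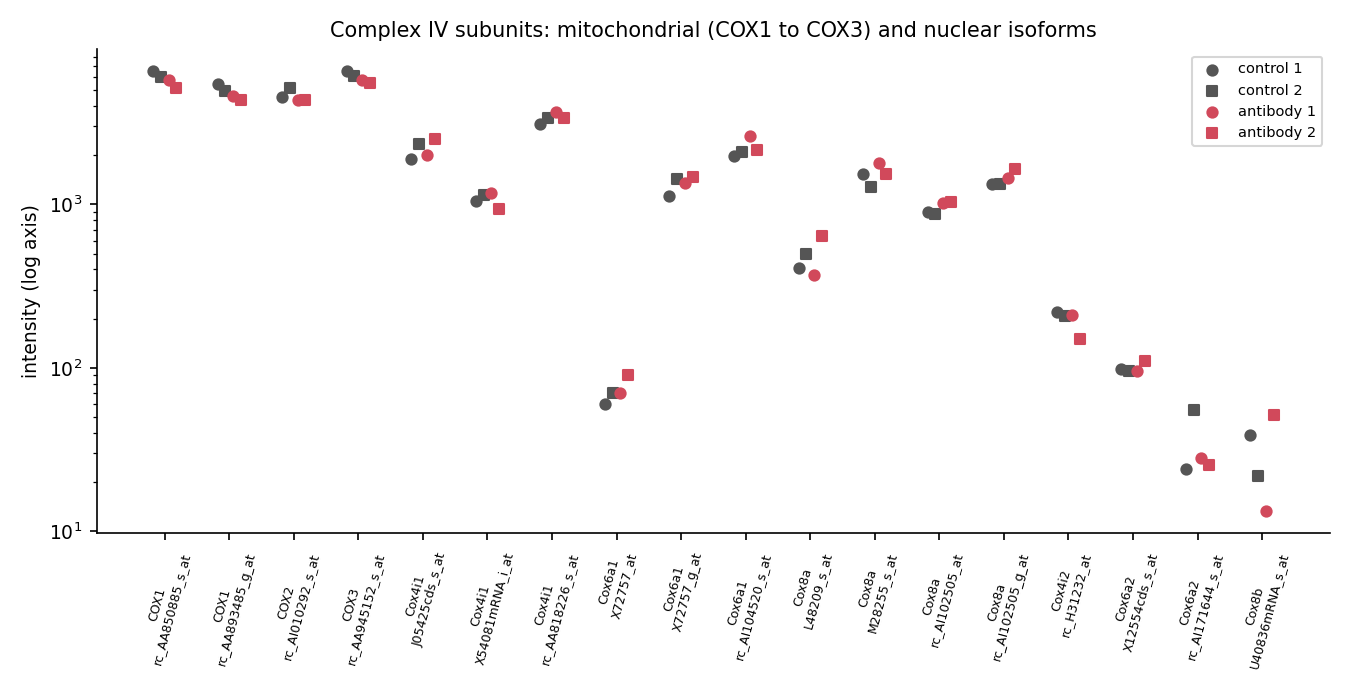
Intensity (log axis) on each array of complex IV probe sets from mitochondrial DNA (COX1 to COX3) and of the nuclear tissue isoforms, controls in grey and antibody in red, replicate 1 as circles and 2 as squares. The 4 mitochondrial probe sets have both antibody arrays below both controls, and 3 of 4 Cox8a probe sets have both above.

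ATP synthase had 5 tested probe sets above 0 and 12 below, a median log2 change of -0.054. By the brightest probe set, 3 of its 10 genes were above 0 and 7 below. With median centring 3 were above and 14 below. Antibody arrays lay wholly below the controls for 3 (17.6%), near the 15.5% of all tested, and wholly above for 0, against 21.9%. No probe set passed limma's test (smallest adjusted p 0.694). Without control 2 the split was 11 above and 6 below, and the same without antibody 1.

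Atp5f1d, the delta subunit of the catalytic head's central stalk, read 547.0 and 629.9 in the controls and 470.3 and 475.0 with antibody (-0.30 ± 0.17, limma adjusted p = 0.694). Its second probe set, which shares the accession, read 376.6 and 435.5, then 380.4 and 439.5 (0.013 ± 0.18). The groups were separate on the first and overlapped on the second.

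Atp5pf, the coupling factor 6 subunit, repeated this split. Its probe set X54510_g_at read 652.4 and 713.9, then 641.9 and 513.2 (-0.24 ± 0.18), and X54510_at read 572.4 and 615.5, then 577.3 and 582.6 (-0.03 ± 0.16). Atp5pd, subunit d of the peripheral stalk, read 960.7 and 1141.6, then 911.6 and 874.3 (-0.23 ± 0.17). The groups were separate for Atp5pd and for the first Atp5pf probe set.

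Atp5pb, subunit b of the peripheral stalk, read 1081.3 and 640.6 in the controls and 1051.7 and 932.6 with antibody. Control 2 alone was low. The log2 change was 0.25 ± 0.24 (limma adjusted p = 0.851), and without control 2 it was -0.12. Atp5if1, the inhibitor that blocks ATP hydrolysis, had 4 probe sets from -0.28 ± 0.25 to 0.21 ± 0.20, all with overlap. Atp5po, the stalk subunit that confers oligomycin sensitivity, had 0.10 ± 0.21 and -0.054 ± 0.19. The catalytic subunits Atp5f1a and Atp5f1b had -0.13 ± 0.19 and 0.0096 ± 0.16, and Atp5f1c and Atp5f1e lay between -0.061 and -0.028.

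Across the complexes, 26 genes had more than 1 tested probe set. All probe sets of a gene were on 1 side of 0 in 10 of these genes (7 above, 3 below) and on both sides in 16. In those 16 genes the direction depended on the probe set read.

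The spread within treatments had a pattern of its own, which was looked at after the values were seen. Control 2 was above control 1 for 79 of the 92 members (85.9%), against 42.9% of all tested probe sets. The median difference between the 2 control arrays was 0.26 on the log2 scale for the members and -0.051 for all tested. Antibody 2 was above antibody 1 for 64 (69.6%), against 50.2%. Both held for 57 members (62.0%), against 22.9% of all tested. Members are not independent of each other, and no test was made of these counts.

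Complex I followed the control difference in 40 of 42 probe sets, with a median of 0.33. ATP synthase did in 15 of 17 and complex III in 6 of 7. Complex IV did in 17 of 24, and complex II in 1 of 2. Between the antibody arrays, complex IV had 18 of 24 and complex III 3 of 7 with replicate 2 above. With quantile normalization 78 members had control 2 above control 1, and with median centring 82.

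**Figure D3:**
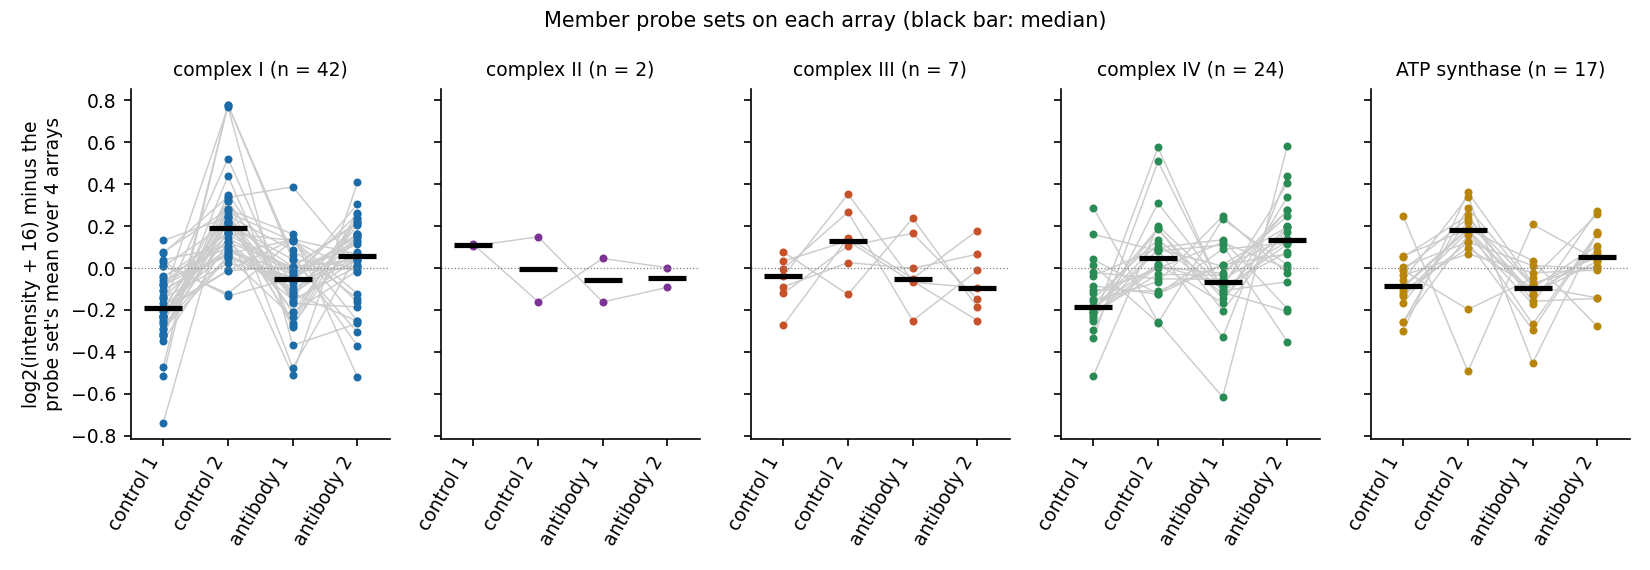
Log2(intensity + 16) of each tested probe set on each array, minus its mean over the 4 arrays (y axis), by complex, with grey lines joining the values of 1 probe set and black bars at the median. The complex I median is -0.19 on control 1 and 0.19 on control 2, with both antibody medians between.

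Brightness, as deposited, moved with the control side of this pattern only, and cytosolic ribosomal protein genes moved with both sides. Of the 1313 brightest tested probe sets, 54.0% had control 2 above control 1, and of the 1313 dimmest 36.8%. With quantile normalization these shares were 48.7% and 46.2%. Between the antibody arrays, as deposited, replicate 2 was above replicate 1 for 51.6% of the brightest and 54.7% of the dimmest. Cytosolic ribosomal protein genes, which are outside the mitochondria, had 49 of 57 (86.0%) between the controls and 45 of 57 (78.9%) between the antibody arrays. Of the mitochondrial lists, citric acid cycle and pyruvate dehydrogenase genes had 18 of 27 between the controls but 9 of 27 between the antibody arrays. Carriers and import had 15 and 16 of 31, and fatty acid oxidation 11 and 15 of 25. The mitochondrially encoded subunits had 1 and 0 of 4. The part of RNA quality or cell content in this pattern was not tested.

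**Figure D4:**
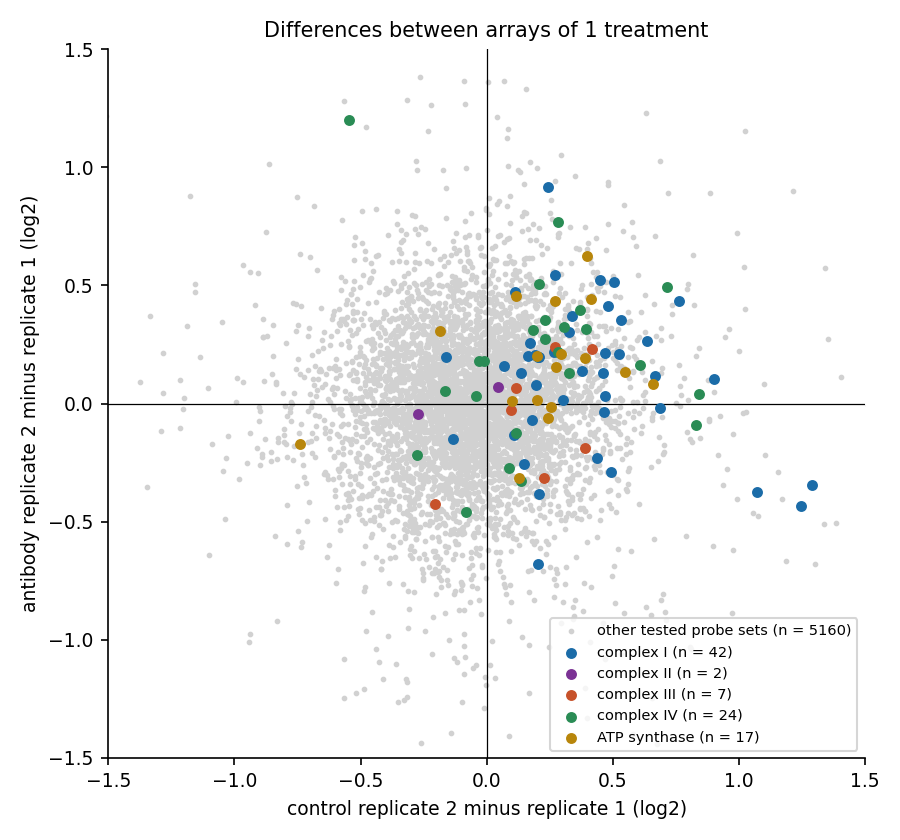
Difference between the 2 control arrays (x axis) and between the 2 antibody arrays (y axis), in log2, for each tested probe set, members coloured by complex and others in grey; 21 of 5252 probe sets lie outside the axes. Of the 92 members, 79 lie right of 0 and 57 lie above and right of 0.

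The treatment difference was small beside this spread. The median size of the antibody-minus-control difference, between means of 2 arrays, was 0.11 for the members. The median size of the within-treatment difference, between single arrays, was 0.28. Means of 2 arrays vary less than single arrays, so the first tends to be the lesser even without a treatment effect. For all tested probe sets the values were 0.16 and 0.21. The between-treatment difference was the lesser in 73 of 92 members (79.3%), against 62.1% of all tested. Leaving out single arrays moved the whole group: without control 1, 24 members were above 0 and 68 below (median -0.14), and without control 2, 70 were above and 22 below (median 0.14). Without antibody 1 the split was 60 and 31, and without antibody 2 it was 37 and 55.

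Other mitochondrial genes, on lists drawn up with earlier results of these data known, gave the setting. Among 27 tested probe sets of the citric acid cycle and pyruvate dehydrogenase, 14 were above 0 and 13 below, and 3 had an unadjusted p under 0.05, all lower. Citrate synthase (Cs) read 113.5 and 111.9 in the controls and 83.5 and 46.0 with antibody (-0.71 ± 0.23, limma adjusted p = 0.488). Idh2, the mitochondrial NADP isocitrate dehydrogenase, read 74.5 and 74.0, then 53.8 and 38.5 (-0.55 ± 0.20), and its other probe set had 0.03 ± 0.24. Pdha1, the pyruvate dehydrogenase alpha subunit, read 225.2 and 172.2, then 141.7 and 137.5 (-0.45 ± 0.18), and its other probe set had -0.05 ± 0.18. None was called.

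Carriers and import had 31 tested probe sets, 11 above and 20 below 0, with 1 called. Hspa9, the mitochondrial chaperone that draws proteins into the matrix, read 537.7 and 531.1 in the controls and 254.1 and 259.0 with antibody on S78556_at (-1.01 ± 0.16, limma adjusted p = 0.0479). Its other probe sets had 0.08 ± 0.20 and -0.02 ± 0.18. The call was lost in 7 of 12 alternative settings, with adjusted p from 0.0038 to 0.633 and a log2 change from -1.06 to -0.90. Without control 1 the adjusted p was 0.355 and without control 2 it was 0.633.

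Slc25a5, an ADP/ATP carrier that exports the ATP made by ATP synthase, read 1439.5 and 1380.6, then 1061.0 and 937.1 (-0.49 ± 0.16, limma adjusted p = 0.488). Slc25a4, the muscle-type carrier, read 1179.2 and 1055.0, then 1187.3 and 1260.9 (0.13 ± 0.16). Slc25a14, an uncoupling protein relative, had -0.49 ± 0.24 on 1 probe set and 0.03 ± 0.18 on the other.

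Fatty acid oxidation had 25 tested probe sets, 17 above 0 and 8 below (15 and 10 with median centring), a median of 0.15, with 11 separate and higher (background 21.9% of all tested) and 2 separate and lower (background 15.5%). Cpt1b, which loads long-chain fatty acids for import, read 91.8 and 170.8, then 263.9 and 241.4 (0.92 ± 0.25, limma adjusted p = 0.28), and on its other probe set 173.8 and 181.6, then 209.8 and 196.2 (0.18 ± 0.17). Acads, the short-chain acyl-CoA dehydrogenase, read 95.3 and 85.1, then 122.8 and 127.0 (0.41 ± 0.17, adjusted p = 0.585). Etfdh, which hands electrons from fatty acid oxidation to ubiquinone, had 0.31 ± 0.18 and 0.27 ± 0.19. Groups were separate for all of these, and none was called.

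Biogenesis regulators and uncoupling proteins had 6 tested probe sets, 5 above 0. Esrra, a nuclear receptor that acts on respiratory chain genes, read 45.0 and 40, then 26.3 and 19.4 (-0.59 ± 0.21, limma adjusted p = 0.534). Ucp2 had 0.19 ± 0.16, and on its other probe set 0.09 ± 0.17 with overlap. Ucp3 had 0.21 ± 0.22. Esrra and Ucp3 each also had a probe set too dim to test, with overlapping groups. On the separate list of assembly factors outside the name rule, 2 were tested: Coa3, for complex IV, had -0.52 ± 0.21 (adjusted p = 0.58) and Nubpl, for complex I, had -0.53 ± 0.36 (adjusted p = 0.778).

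**Figure D5:**
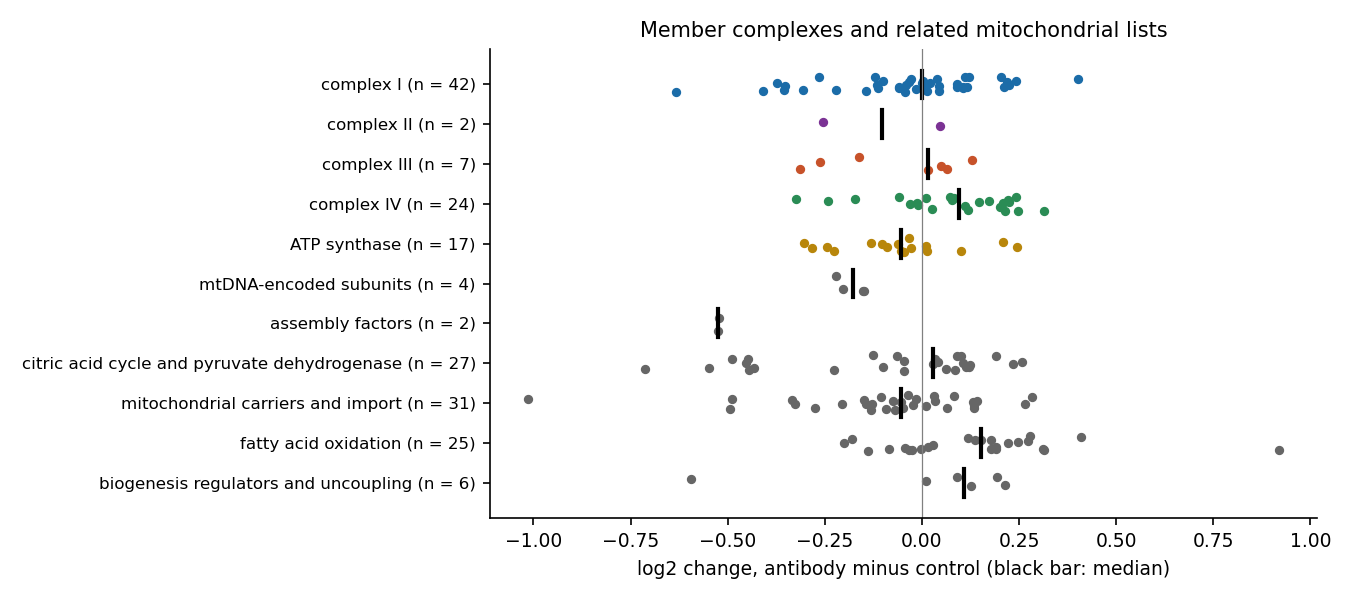
Log2 change (antibody minus control, x axis) of each tested probe set in the 5 complexes (coloured) and in related mitochondrial lists (grey), with black bars at the medians. The members' medians run from -0.10 (complex II) to 0.097 (complex IV), and that of fatty acid oxidation is 0.15.

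Testis cell types were present on all arrays. Clu, a Sertoli cell secretion, read 6440 to 7459, and the summed Sertoli list was 11768 to 11859 in the controls and 11184 to 12003 with antibody. Clu had a log2 change of 0.03 ± 0.15, but single markers moved further. Of the 14 tested Sertoli probe sets, 9 were above 0 and 5 below. Testin was called higher (1.56 ± 0.18, limma adjusted p = 0.0152), while Inha had -0.90 ± 0.19 and -0.49 ± 0.24 without a call. The summed Leydig list was 2664 to 2710 and 2102 to 2284, and the myoid list 5389 to 5770 and 4554 to 6118. Leydig probe sets were 3 above and 6 below 0. One of Star was called lower (-1.49 ± 0.23, limma adjusted p = 0.0418), while Cyp11a1 had 0.52 ± 0.21. The summed erythroid list was 1412 to 2478 and 1224 to 1408. In it, Alas2 was called lower (-1.38 ± 0.21, limma adjusted p = 0.0418), and Hbb had -0.43 ± 0.25. Median array intensity was 36.5 to 40.4. The part of any of these in the members' values was not tested.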

How the data were processed

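RNA of 4 testis samples was measured on Affymetrix rat U34 set A arrays. Each probe set has 1 deposited intensity per array, on a linear scale. Which software, background correction and scaling the authors used is not given in the sources used here. The trimmed mean (2% off either end) came to 125 on each array, so a common scaling had been applied. Depth does not apply, and the 2 arrays a group limit the precision. No detection calls were used.

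Groups came from the source names. Intensities were analysed as log2(intensity + 16) after 59 control probe sets were left out, keeping those at or above the 40th percentile of mean log2 value over all 8799 (5252 of 8740). Groups were compared with limma 3.58.1 (lmFit, eBayes with intensity trend, two-sided) in R 4.3.3, with Benjamini-Hochberg adjustment over all tested probe sets at 0.05. The code was tested on simulated data. Symbols came from GEO's platform annotation (7018 probe sets with 1 symbol, 308 with several, 1473 with none). RefSeq GRCr8 changed 0 member symbols, and start-site windows were the first listed of each gene.

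Named with array values, log2 changes or a range of these were, per complex, the 3 members with the smallest p in each direction. Every member was named where a complex had 6 or fewer tested. Tissue isoforms, all probe sets of those genes and the 3 smallest p of a related list were also named. Dim members were named with a common range of intensities. Other names, among them Ndufaf3, Ndufs8 and Slc25a4, were chosen after their values were seen. Members and lists were chosen with earlier results of these data known. Alternatives were quantile normalization, median centring, constants of 1 and 64, no filter, a 60th percentile filter, no trend, a replicate block, 1 value per gene (its brightest probe set, or the mean over its probe sets), and leaving out each array.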

Additional observations from a re-analysis of the deposited data

How the results depend on the processing

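No member was called in any of the 12 alternative settings (smallest member adjusted p in limma 0.107, without antibody replicate 1). The count of called probe sets, 14 as reported, was 0 with quantile normalization (420 at unadjusted p under 0.05), 4 with median centring, 0 with no filter (702), 39 with the replicate block, and 0 to 154 without single arrays (268 to 706 at unadjusted p under 0.05; 0 called without either control array). With the 60th percentile filter 277 had an unadjusted p under 0.05. Members with an unadjusted p under 0.05, 1 as reported, were 0 with quantile normalization, 0 with the 60th percentile filter, 2 with the replicate block, and 2 to 8 without single arrays.

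The correlation of replicate 2 minus replicate 1 between the groups was 0.0039 over all tested probe sets and -0.054 over the members. Replicate 2 was above 1 in both groups for 62.0% of members, against 22.9% of all tested. A correlation does not register a shift that members share, so it cannot settle whether replicate numbers pair the samples. The replicate block therefore stands only as an alternative.

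Without single arrays the median log2 change ran from -0.18 to 0.21 for complex I, from -0.14 to 0.014 for complex III and from -0.23 to 0.048 for ATP synthase. Medians of complexes II and IV kept their sign in all settings, complex IV from 0.0063 to 0.22. Of 51 named probe sets, 26 kept their direction in every setting they were tested in and 25 did not (46 were tested in all 12 settings and 5 in 11); the cause was not tested. Their log2 changes without single arrays ran as follows. In ATP synthase, these were Atp5f1d U00926_at from -0.088 to 0.11, Atp5if1 D13122_f_at from -0.32 to 0.12 and Atp5if1 D13122_i_at from -0.59 to 0.029. Further ranges were Atp5if1 rc_AA891873_f_at from -0.23 to 0.048, Atp5pb rc_AA799778_at from -0.12 to 0.62 and Atp5pf X54510_at from -0.084 to 0.018. Further ranges were Atp5po D13127_at from -0.25 to 0.14 and Atp5po D13127_g_at from -0.12 to 0.32. In complex I, these were Ndufb6 rc_AA900199_s_at from -0.14 to 0.94, Ndufb6 rc_AI104528_at from -0.18 to 0.36 and Ndufb8 rc_AA964320_at from -0.24 to 0.24. In complexes II and III, these were Sdha rc_AA800250_at from -0.090 to 0.18, Uqcr11 rc_AA892462_at from -0.14 to 0.17 and Uqcr11 rc_AA926137_s_at from -0.080 to 0.34. Further ranges were Uqcrc2 rc_AI235358_at from -0.16 to 0.26. In complex IV, these were Cox4i1 J05425cds_s_at from -0.083 to 0.24, Cox4i1 X54081mRNA_i_at from -0.22 to 0.11 and Cox6a1 X72757_g_at from -0.016 to 0.31. Further ranges were Cox6a2 rc_AI171644_s_at from -0.74 to 0.091, Cox6a2 X12554cds_s_at from -0.018 to 0.16 and Cox6b1 rc_AA946040_at from -0.21 to 0.19. Further ranges were Cox6b1 rc_AI104035_s_at from -0.080 to 0.42, Cox6c M27467_at from -0.59 to 0.25 and Cox8a L48209_s_at from -0.27 to 0.50. Further ranges were Cox8b U40836mRNA_s_at from -0.63 to 0.57. Outside the left-out arrays, direction turned for Atp5f1d U00926_at (-0.033) and Uqcr11 rc_AA892462_at (-0.030) with median centring, for Atp5pf X54510_at (0.0097) and Ndufb8 rc_AA964320_at (0.052) with quantile normalization, and for Cox8b U40836mRNA_s_at (0.0091) with a constant of 64. The scaling of arrays, chosen as an alternative after seeing the data for the comparison of replicates, gave 59 to 66 members with antibody 2 above antibody 1 (64 as deposited).

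With 2 arrays a group, a left-out array leaves a lone one that is assumed to vary like the other group. Signal over background is unknown, so dim members have no tested lower bound.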
